A study of Mus musculus with 12 samples.

Results

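The clustered protocadherins are cadherin-like adhesion proteins of the neuronal surface whose genes lie side by side in 3 clusters, alpha, beta and gamma, on chromosome 18 of the mouse. They were taken as every row of the deposited table whose symbol begins with Pcdha, Pcdhb, Pcdhga, Pcdhgb or Pcdhgc and goes on to the number or c-number of a member, which gave 58 of 54833 genes. The alpha cluster held 14 of them (12 alpha genes with Pcdhac1 and Pcdhac2), the beta cluster 22 and the gamma cluster 22 (12 gamma A genes, 7 gamma B genes, Pcdhgc3, Pcdhgc4 and Pcdhgc5). The 5 genes with a c in their symbol are called the C-type genes here and are counted apart from the alpha, gamma A and gamma B genes. Membership followed the symbol, but Pcdhb8 and Pcdhb9 were selected on their higher counts in aged tissue in these samples, so that differences between the ages are given below as a description and without a test.

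RNA-seq was performed on the caudate putamen of the injected hemisphere, around the hematoma, 24 h after surgery. The 4 groups, with 3 samples each, were young sham (8 to 10 weeks old, saline), young ICH (8 to 10 weeks old, type IV collagenase), aged sham (20 to 22 months old, saline) and aged ICH (20 to 22 months old, type IV collagenase). Collagenase digests the wall of small vessels, and its injection produces an intracerebral hemorrhage (ICH). All mice were male C57BL/6 without a transgene, and a sample pooled the tissue of 2 or 3 of them, so that the spread between samples is one between pools. Between 28410896 and 37785160 reads were counted on genes in a sample, of which 12993 to 20091 fell on clustered protocadherins.

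In the alpha and gamma clusters, each variable first exon has its own promoter and is spliced to constant exons that all genes of the cluster share, whereas a beta gene is a single exon. A neuron switches on a small set of these promoters, chosen largely at random with the help of CTCF, cohesin and DNA methylation, while the C-type genes are used more uniformly from cell to cell. The proteins bind the same isoform on an opposing membrane, and the combination that a neuron displays lets its branches recognize and avoid each other. Gamma proteins, and Pcdhgc4 in particular, are also known for keeping neurons alive, and Pcdhac2 for the spacing of serotonergic axons.

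This gene structure bears on every value below. In the annotation used (GENCODE vM21, build GRCm38), the genes of the alpha cluster (36930184 to 37187661) share 2860 to 2864 exon bases with each other, and a median of 46.4% of the exon bases of an alpha cluster gene belonged to no other gene. The median was 54.7% in the gamma cluster (37661793 to 37841873), and in the beta cluster (37264938 to 37524479) 19 of 22 genes had no shared exon base. The length behind the deposited FPKM, recovered from counts and FPKM, equalled the full exon length with the constant exons in 58 of 58 members. Levels of different members are therefore compared as CPM (counts scaled to a common, normalized library size) per kb of exon that belongs to no other gene. This scale assumes that reads on constant exons were counted to no member, which the sources used here do not state, and it raises alpha and gamma levels relative to beta levels when set beside FPKM. Similarity between the sequences of members was not analysed here, and reads of near-identical members may have been split or lost in the authors' counting.

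Of the 58 members, 54 had enough reads to be tested. Pcdhga10, which has 0 unshared exon bases of 4732, had 1 to 9 counts in a sample, and Pcdha4, with 404 unshared bases of 5768, had 2 to 15. The symbol Pcdha11 stands on 2 different gene records. The record that begins at 37005203 was tested, and the other, which begins at 37010712 and has 1268 unshared bases of 7535, had 1 to 9 counts. Pcdhb1 was at the limit of detection although all of its 2588 exon bases are its own, with 0 to 10 counts in a sample. A count of 0 allows up to 3 counts, or 0.0884 and 0.1005 CPM in the 2 young ICH samples in which it was not detected, and such limits cover counting error only. Among the tested members, 53 had at least 14 counts in every sample, and Pcdha8 had 4 to 51.

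Of the C-type genes, 3 had the highest levels of all members per kb of unshared exon. In young sham tissue, Pcdhgc5 reached 24.8 ± 1.18 CPM per kb of unshared exon (SD, n = 3), followed by Pcdhgc3 with 13.0 ± 1.94 and Pcdhac2 with 10.5 ± 1.16. Pcdhgc5 stood apart from all other members, whereas the ranges of mean ± SD of Pcdhgc3 and Pcdhac2 overlapped. Their order depends on an antisense gene that covers 1559 exon bases of Pcdhgc3, because without subtracting these bases Pcdhgc3 had 7.03 CPM per kb. The median level per kb was 4.15 CPM in the 11 tested gamma A genes, 2.70 in the 7 gamma B genes, 1.56 in the 21 tested beta genes and 1.37 in the 10 tested alpha genes. The beta genes of highest level were Pcdhb20 (4.81 ± 0.0909), Pcdhb17 (4.14 ± 0.144) and Pcdhb9 (3.99 ± 0.133), and the ranges of mean ± SD of the latter pair overlapped. Among the C-type genes, Pcdhgc4 was at rank 19 (3.43 CPM per kb) and Pcdhac1 at rank 40 (1.27). In mean FPKM of young sham, which includes the constant exons in the length, Pcdhb20 (4.61), Pcdhb17 (3.97) and Pcdhb9 (3.82) stood above the highest gamma A gene, Pcdhga6 (3.43). Pcdhb20 also stood above Pcdhgc3 (4.14) there, so that the ranking of the C-type genes depends on the scale. Pcdhgc5 had a mean FPKM of 10.9 over all samples, above 88.3% of the genes with any reads, and the plot of levels shows that the other members ranged down to the limit of detection.

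**Figure D1:**
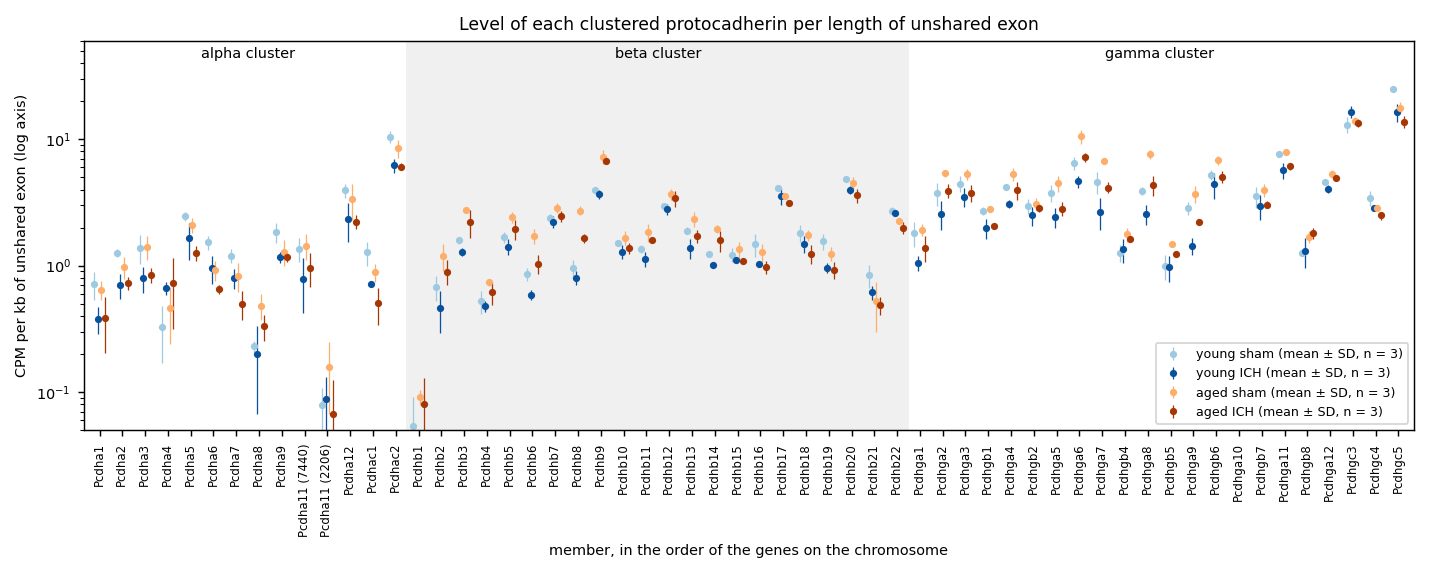
Level of each member in the 4 groups, as CPM per kb of exon shared with no other gene (log axis; points are means and lines SDs, n = 3). Pcdhgc5, Pcdhgc3 and Pcdhac2 lie highest, with Pcdhgc5 at 24.8 in young sham. Pcdhga10 has no unshared exon and no point, and lines that reach below the axis are cut.

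The response to ICH was analysed first, since the rule that picked the genes did not name it. The members were still chosen with earlier results of these data known, and the sham samples of Pcdhb8 and Pcdhb9 enter their ICH values. Clustered protocadherins were lower after ICH at both ages. In young ICH vs. young sham, 17 of the 54 tested members were DEGs with lower levels (31.5%, compared with 3.49% of all 21495 genes tested). A DEG had to pass the study's limits on FC (1.5 upward, 0.67 downward) with an unadjusted *P* under 0.05 in edgeR's quasi-likelihood test. Of the members, 0 were DEGs with a higher level (8.66% of all genes), and 1, Pcdhgc3, was higher at an unadjusted *P* under 0.05 (17.3% of all genes). The log2FC was below 0 in 51 of 54 members (47.3% of all genes), with a median of −0.44 compared with 0.02 over all genes. In 29 members every young ICH sample lay below every young sham sample, which was the case for 16.5% of all genes.

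In aged ICH vs. aged sham, 12 of 54 members were DEGs with lower levels (22.2%, compared with 2.82% of all genes), and 0 were higher, either by the DEG criterion (7.24% of all genes) or at an unadjusted *P* under 0.05 (14.6%). The log2FC was below 0 in 53 of 54 members (49.7% of all genes), with a median of −0.41 compared with 0.00 over all genes. In 33 members every aged ICH sample lay below every aged sham sample (17.3% of all genes). The same 9 members were DEGs at both ages, which is 52.9% of those in young mice and 75.0% of those in aged mice: Pcdha1, Pcdha3, Pcdha7, Pcdha12, Pcdhac1, Pcdhga5, Pcdhga7, Pcdhga8 and Pcdhga9. The overlap over all genes was not determined here, so nothing is read from these shares. Pcdhb8 was also among the aged DEGs, and since it was picked out for its aged sham samples, the count without Pcdhb8 and Pcdhb9 is 11 of 52.

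After Benjamini-Hochberg adjustment over all genes tested, 17 members passed an adjusted *P* of 0.05 in young mice, all lower, and 11 in aged mice, all lower. Without Pcdhb8 and Pcdhb9, the aged count was 10 of 52. Of all genes, 9.23% passed lower and 9.89% higher in young mice, and 6.15% lower and 7.0% higher in aged mice. Of the young DEGs, 13 passed the adjustment, and of the aged DEGs, 7. These counts depended on single samples and on the fit. Without young sham replicate 2, 11 members were DEGs in young mice and 5 passed the adjustment, without young sham replicate 3, 11 passed it, and without young ICH replicate 1 or 3, 10 did. A fit to young samples alone left 6. In aged mice, 3 members passed without aged ICH replicate 1 or 3, 4 without aged sham replicate 1 or 2, and 20 with DESeq2. With both ages averaged, 34 members passed the adjusted threshold, all lower (15.8% of all genes), with 27 to 32 when 1 sample was left out.

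The order of the subfamilies, whose differences were not tested, depended on the criterion. Alpha genes had the highest share of DEGs, and by the adjusted threshold 4 of 10 alpha genes and 7 of 11 gamma A genes passed in young mice and 1 of 10 and 6 of 11 in aged mice, all lower. In young mice 8 of 10 tested alpha genes were DEGs with lower levels (median log2FC −0.71), and in aged mice 5 of 10 (median −0.59). Pcdha2 was at 2.98, 3.11 and 3.40 CPM in young sham and at 2.18, 1.40 and 1.67 CPM in young ICH. The groups did not overlap, and the log2FC was −0.85 ± 0.20 (SE, adjusted *P* = 0.0129, edgeR). In aged mice Pcdha2 was at 2.98, 2.09 and 2.28 CPM after sham surgery and at 1.98, 1.59 and 1.89 CPM after ICH (log2FC −0.43 ± 0.20), and it was not a DEG there. Pcdha5 was at 5.53, 6.31 and 5.48 CPM in young sham, 3.69, 5.23 and 2.71 in young ICH, 5.63, 4.42 and 4.67 in aged sham and 3.18, 2.51 and 3.17 in aged ICH. It was a DEG in aged mice (log2FC −0.73 ± 0.21) and missed the fold limit in young mice (−0.58 ± 0.21).

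Pcdha12, the alpha gene of highest mean FPKM, was at 6.88, 8.79 and 7.36 CPM in young sham and at 4.21, 6.26 and 3.18 CPM in young ICH. In aged mice it was at 8.90, 4.86 and 5.96 CPM after sham surgery and at 4.60, 3.69 and 4.65 CPM after ICH. It was a DEG at both ages (log2FC −0.76 ± 0.26 and −0.61 ± 0.26), and neither value passed the adjustment (adjusted *P* = 0.0619 and 0.148, edgeR). Pcdha9 was at 3.76, 5.39 and 4.62 CPM in young sham and at 3.08, 3.06 and 2.55 in young ICH, and its log2FC of −0.66 ± 0.19 in young mice passed the adjustment (adjusted *P* = 0.0357, edgeR). In aged mice it was at 3.74, 2.36 and 3.5 CPM after sham surgery and at 3.12, 2.88 and 2.64 CPM after ICH, and these groups overlapped (log2FC −0.15 ± 0.19).

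In the beta cluster the median changes were smaller. Of 21 tested beta genes, 1 was a DEG in young mice (4.76%, near the 3.49% of all genes) and 2 in aged mice (9.52%, compared with 2.82%). The 2 aged DEGs were Pcdhb6 and Pcdhb8. Since Pcdhb8 was picked out for its aged sham samples, nothing is read from the aged share. The medians were −0.27 and −0.31, although the log2FC was below 0 in 21 of 21 at each age. Pcdhb19, the DEG in young mice, was at 9.81, 12.9 and 10.8 CPM in young sham and 7.26, 7.09 and 6.11 CPM in young ICH (log2FC −0.71 ± 0.15, adjusted *P* = 0.00899, edgeR). In aged mice it was at 9.90, 7.79 and 8.98 CPM after sham surgery and at 5.41, 7.31 and 7.13 CPM after ICH (−0.43 ± 0.15). The sham and ICH samples of Pcdhb19 were thus separate at both ages. Pcdhb6, a DEG in aged mice, was at 5.59, 7.35 and 6.5 CPM in aged sham and 3.26, 4.57 and 3.77 CPM in aged ICH (−0.75 ± 0.16, adjusted *P* = 0.0143, edgeR). In young mice Pcdhb6 was at 3.59, 3.17 and 2.87 CPM after sham surgery and at 2.06, 2.16 and 2.43 CPM after ICH, where it passed the adjustment but not the fold limit (−0.54 ± 0.17, adjusted *P* = 0.0463, edgeR).

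The beta genes of highest mean FPKM had small changes. Pcdhb20 was at 16.7, 17.3 and 17.3 CPM in young sham, 15.2, 13.2 and 13.8 in young ICH, 16.8, 17.4 and 14 in aged sham and 11.2, 14.3 and 12.9 in aged ICH (log2FC −0.28 ± 0.11 and −0.33 ± 0.11). Pcdhb17 was at 18.8, 20.0 and 19.1 CPM in young sham, 19.3, 14.5 and 16.1 in young ICH, 16.7, 16.3 and 16.3 in aged sham and 14.4, 14.6 and 14.5 in aged ICH (−0.22 ± 0.09 and −0.18 ± 0.09). Neither gene passed the adjustment at one age alone, and both passed it with the ages averaged (adjusted *P* = 0.0106 and 0.0402, edgeR). Pcdhb9 had log2FC of −0.13 ± 0.10 and −0.12 ± 0.10 and did not pass the test at either age.

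Of 11 tested gamma A genes, 5 were DEGs in young mice (median log2FC −0.54) and 4 in aged mice (median −0.50). Among the 7 gamma B genes there were 0 DEGs at either age by edgeR, a count too small to set apart from the 3.49% and 2.82% of all genes, with medians of −0.25 and −0.24. At an unadjusted *P* under 0.05, 1 gamma B gene was lower in young mice (15.9% of all genes) and 2 in aged mice (14.3%). One of them, Pcdhgb1, passed the adjustment at both ages (log2FC −0.44 ± 0.13 at each).

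Pcdhga9 had the largest decrease of all members in young mice. It was at 9.53, 11.2 and 8.98 CPM in young sham and 4.41, 4.63 and 5.80 CPM in young ICH, with a log2FC of −1.0 ± 0.15 (adjusted *P* = 0.00191, edgeR). In aged mice it was at 14.9, 12.4 and 10.96 CPM after sham surgery and at 7.50, 7.62 and 7.95 CPM after ICH (−0.73 ± 0.14, adjusted *P* = 0.00997, edgeR). The sham and ICH samples did not overlap at either age.

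Pcdhga8 had the largest decrease in aged mice, from 16.7, 14.3 and 16.4 CPM in aged sham to 8.45, 10.8 and 7.79 CPM in aged ICH (−0.81 ± 0.15, adjusted *P* = 0.00824, edgeR). In young mice it was at 7.85, 8.79 and 7.72 CPM after sham surgery and at 4.41, 5.33 and 6.27 CPM after ICH (−0.61 ± 0.15, adjusted *P* = 0.0191, edgeR). Every aged ICH sample of Pcdhga8 thus stood above the young ICH samples while lying below the aged sham samples. Pcdhga6, the gamma A gene of highest mean FPKM, was at 19.1, 16.8 and 14.9 CPM in young sham, 11.3, 11.4 and 13.7 in young ICH, 27.8, 30.9 and 23.8 in aged sham and 17.6, 20.7 and 18.4 in aged ICH. It passed the adjustment at both ages and remained inside the fold limit (−0.48 ± 0.13 and −0.54 ± 0.12).

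**Figure D2:**
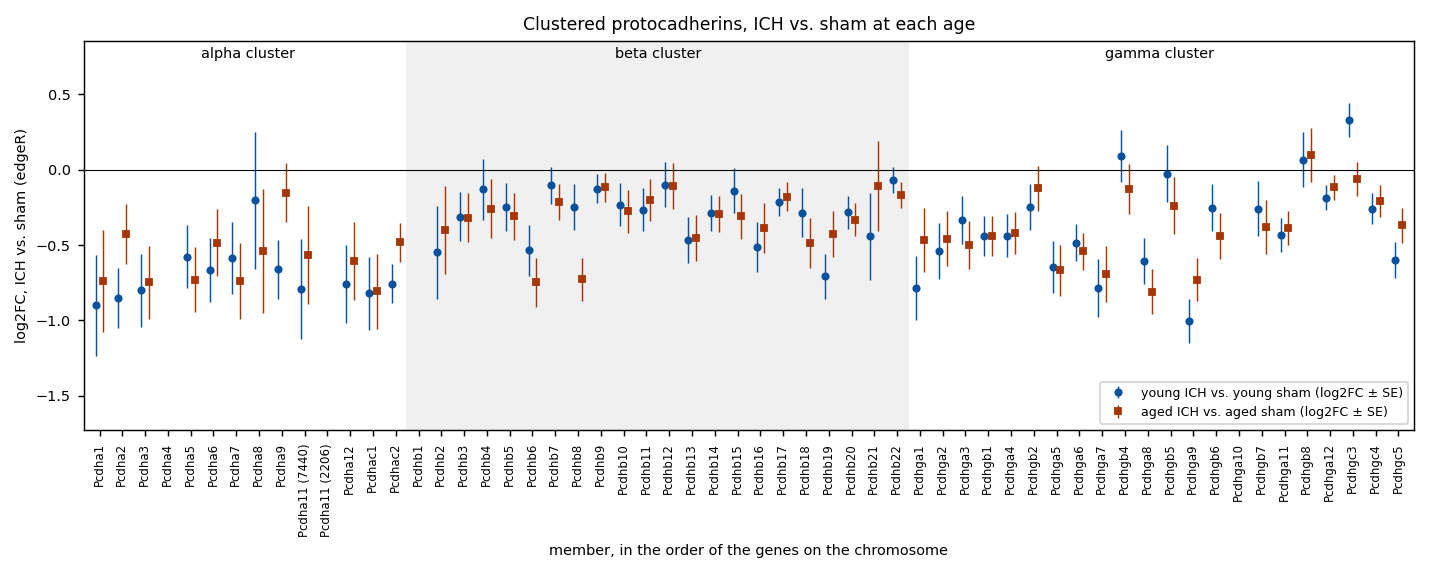
log2FC of ICH vs. sham for each tested member in young and aged mice (lines are SEs of the edgeR fit; vertical axis in log2 units). Most points lie below 0, and the alpha and gamma A genes lie lowest, with Pcdhga9 at −1.0 in young mice. Pcdhgc3 in young mice (0.33) is the highest point.

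Among the 5 C-type genes, 3 were DEGs in young mice and 1 in aged mice, all lower, and the log2FC was below 0 in 4 and in 5. Pcdhgc5 was at 115, 119 and 109 CPM in young sham and at 62.0, 85.7 and 78.3 CPM in young ICH (log2FC −0.60 ± 0.12, adjusted *P* = 0.00617, edgeR). The fold limit was no longer passed without young sham replicate 2 (−0.57) or without young ICH replicate 1 (−0.48). In aged mice Pcdhgc5 was at 90.2, 81.0 and 73.6 CPM after sham surgery and at 57.9, 60.6 and 70.9 CPM after ICH, and it was not a DEG (−0.37 ± 0.12). The sham and ICH samples of Pcdhgc5 did not overlap within an age.

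Pcdhac2 was at 29.5, 35.8 and 29.9 CPM in young sham and 19.0, 21.1 and 16.2 CPM in young ICH (−0.76 ± 0.13, adjusted *P* = 0.00337, edgeR). In aged mice it was at 30.2, 22.5 and 24.3 CPM after sham surgery and at 17.9, 17.7 and 19.6 CPM after ICH (−0.48 ± 0.13, adjusted *P* = 0.0304, edgeR). Pcdhac1 was at 2.74, 4.06 and 2.97 CPM in young sham, 1.86, 1.90 and 1.76 in young ICH, 2.71, 2.06 and 2.07 in aged sham and 1.56, 0.812 and 1.51 in aged ICH. Its log2FC was −0.82 ± 0.24 in young mice (adjusted *P* = 0.0350, edgeR) and −0.81 ± 0.25 in aged mice (adjusted *P* = 0.0537, edgeR). Without aged ICH replicate 2, the lowest of its samples, the aged value was −0.57 and was not a DEG.

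Pcdhgc4 was at 13.6, 11.7 and 10.5 CPM in young sham, 10.1, 10.2 and 9.58 in young ICH, 10.1, 10.3 and 9.70 in aged sham and 9.23, 8.77 and 8.01 in aged ICH. Its log2FC of −0.26 ± 0.11 and −0.21 ± 0.11 did not pass the adjustment. Pcdhgc3 went the other way in young mice, at 27.8, 21.2 and 22.2 CPM in young sham and at 27.8, 28.4 and 33.6 CPM in young ICH (0.33 ± 0.11, adjusted *P* = 0.0599, edgeR). In aged mice its sham samples, at 24.4, 27.6 and 24.5 CPM, and its ICH samples, at 22.4, 25.4 and 25.6 CPM, overlapped (−0.06 ± 0.11). No source used here gives the strand setting of the counting, so reads of Pcdhgc3 and of the antisense gene that overlaps it cannot be told apart.

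**Figure D3:**
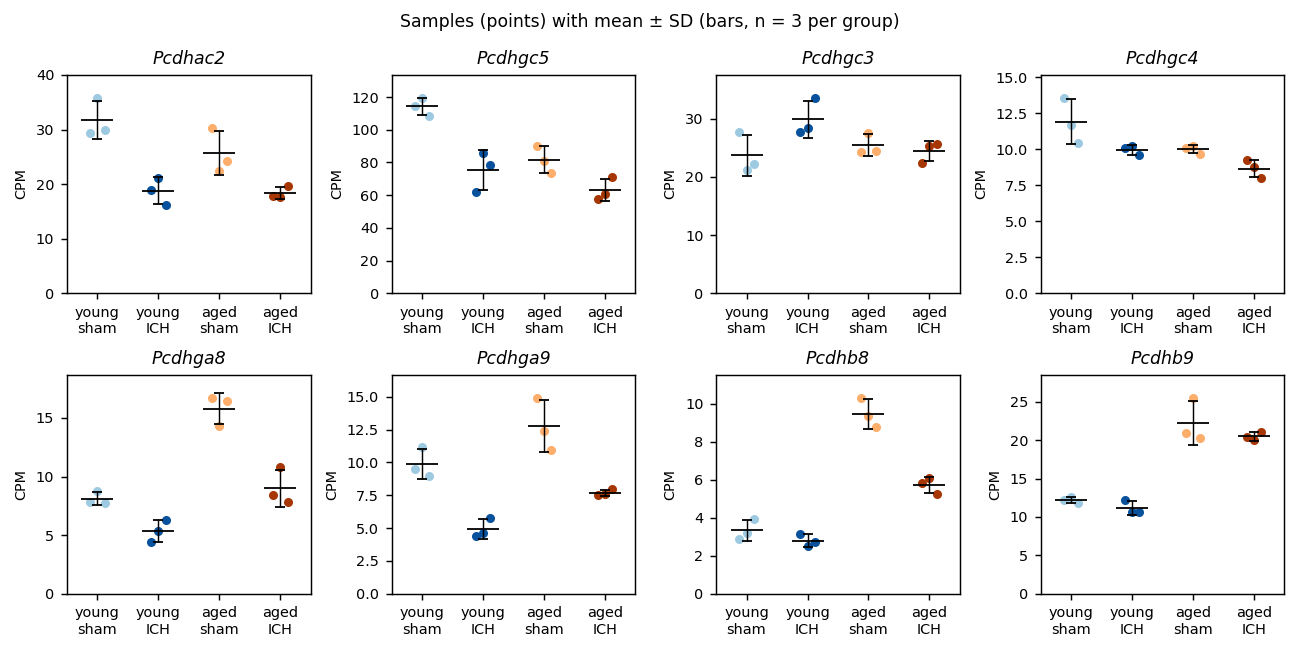
CPM of 8 members in each sample (points), with group means and SDs (n = 3); every vertical axis starts at 0. Pcdhac2, Pcdhgc5, Pcdhga8 and Pcdhga9 have separate sham and ICH samples at each age, and Pcdhb8 rises from about the same level in both young groups to 8.77 to 10.3 CPM in aged sham.

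Summed over all members, the level was 549 ± 29.1 CPM in young sham and 417 ± 19.2 CPM in young ICH, and 585 ± 34.7 CPM in aged sham and 453 ± 21.7 CPM in aged ICH (SD, n = 3 each). The summed alpha cluster changed by −39.5% in young and −31.0% in aged mice, the beta cluster by −17.2% and −18.7%, and the gamma cluster by −24.0% and −23.3%. With counts scaled to plain library totals instead, the decrease of every cluster sum was smaller at both ages. On that scale all members summed to 526 ± 25.5 CPM in young sham and 425 ± 20.3 in young ICH. In aged mice the sums were 576 ± 27.9 after sham surgery and 469 ± 22.4 after ICH. The sham and ICH samples of the summed gamma A genes did not overlap at either age, at 106 to 125 CPM in young sham, 73.0 to 88.1 in young ICH, 145 to 168 in aged sham and 105 to 115 in aged ICH. The summed gamma B genes overlapped in young mice (41.3 to 52.4 CPM in sham and 34.5 to 48.8 in ICH) and did not overlap in aged mice (55.5 to 62.8 and 45.4 to 49.0). The plot of summed levels shows that the beta and gamma A sums were higher in both aged groups than in the young group of the same surgery.

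**Figure D4:**
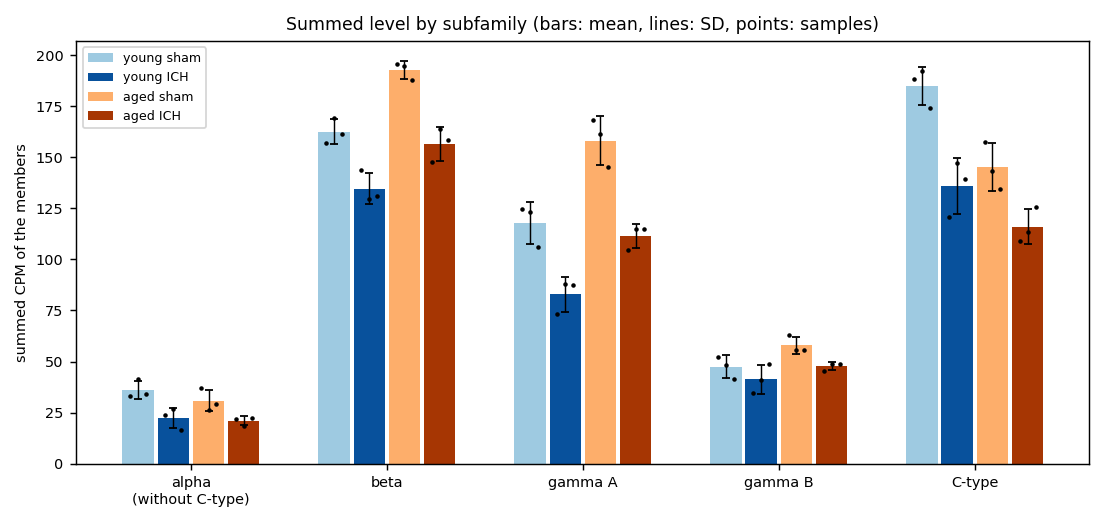
Summed CPM of each subfamily in the 4 groups (bars are means, lines SDs and points the 3 samples of a group; the axis starts at 0). Every subfamily has a lower mean after ICH at both ages. The C-type sum has a mean of 145 CPM in aged sham and 185 in young sham, whereas the beta and gamma A sums are higher.

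Markers of neurons were also lower after ICH, and in bulk tissue fewer neurons and less RNA per neuron cannot be told apart. Of 12 general neuronal markers, 4 passed the adjusted threshold in young mice and 0 in aged mice, all 4 lower, with medians of −0.22 and −0.18. These and the following counts stand against 9.23% of all genes lower by the adjusted threshold in young and 6.15% in aged mice, and against 3.49% and 2.82% lower and 8.66% and 7.24% higher by the DEG criterion. Syt1, a synaptic vesicle gene, was at −0.65 ± 0.12 in young and −0.41 ± 0.12 in aged mice. Their summed level was 8424 to 9733 CPM in young sham, 6201 to 7906 in young ICH, 8163 to 8858 in aged sham and 6753 to 7404 in aged ICH. Of 12 markers of striatal projection neurons, the main cell type of the caudate putamen, 1 was a DEG at each age, with medians of −0.95 and −1.11. The log2FC was below 0 in 12 of these 12 markers at each age. With both ages averaged, 8 of them were DEGs with lower levels (3.40% of all genes), and 1 passed the adjusted threshold. Their summed level was 2266 to 3880 CPM in young sham, 729 to 2239 in young ICH, 1967 to 3422 in aged sham and 489 to 2489 in aged ICH, a wide spread within each group. Of 9 markers of infiltrating leukocytes, 7 were tested, and 6 were DEGs with higher levels in young and 5 in aged mice. Of 9 astrocyte markers, 4 were DEGs with higher levels in young mice and 1 in aged mice. DEGs with lower levels numbered 1 in young and 2 in aged mice among 11 interneuron markers, 1 and 0 among 9 cortical neuron markers, 0 and 4 among 8 oligodendrocyte markers and 2 and 2 among 8 microglial markers. DEGs with higher levels numbered 4 and 2 among 7 endothelial markers, 0 and 2 among 8 choroid plexus and ependymal markers, 1 and 0 among 8 neuroblast markers and 4 and 1 among 5 tested red blood cell markers. Of 6 markers of oligodendrocyte precursors, 1 was higher in young and 3 were lower in aged mice, and of 3 tested markers of serotonergic and dopaminergic neurons 0 were DEGs. The summed choroid plexus and ependymal markers ranged from 64.7 to 501 CPM in young sham, 20.0 to 4094 in young ICH, 65.3 to 104 in aged sham and 45.5 to 1989 in aged ICH, so that single libraries stood far apart within the ICH groups. The part of these shifts in the protocadherin values was not tested.

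Other adhesion genes were also lower, with smaller median decreases than those of the alpha and gamma A genes. The median decrease of each list was larger than that of the gamma B genes at both ages (−0.25 and −0.24). It was also larger than that of the beta genes in young mice (−0.27), and in aged mice the beta median was −0.31. Classical cadherins, at −0.42 in young and −0.38 in aged mice, came close to all members together (−0.44 and −0.41). Synaptic adhesion genes were at −0.37 and −0.31. Lower levels were thus not particular to the clustered members. Of 19 non-clustered protocadherins, 5 passed the adjusted threshold in young and 5 in aged mice, all lower, with medians of −0.34 and −0.30. Pcdh9 had log2FC of −0.54 ± 0.09 and −0.51 ± 0.09 (adjusted *P* = 0.0027 and 0.0061, edgeR), and Fat3, a large atypical cadherin, −0.76 ± 0.16 and −0.58 ± 0.16. Of 13 classical cadherins, 6 passed lower in young and 4 in aged mice, among them Cdh8 (−0.82 ± 0.15 and −0.62 ± 0.15), and 1 passed higher at each age, the endothelial Cdh5 (0.77 ± 0.13 and 0.72 ± 0.13). Of 9 synaptic adhesion genes, 7 passed lower in young and 2 in aged mice, with Cadm2 at −0.52 ± 0.09 and −0.40 ± 0.09 and the neuroligin gene Nlgn1 at −0.47 ± 0.09 and −0.37 ± 0.09.

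Of 24 genes for promoter choice and chromatin at the clusters, 1 passed higher and 2 lower in young mice, and 0 higher and 3 lower in aged mice. In young mice these shares are near or below those of all genes (9.89% higher and 9.23% lower). In aged mice the share that passed lower is above that of all genes (7.0% higher and 6.15% lower). The counts are small, and nothing is read from them about the list. Rest, a repressor of neuronal genes, rose in young mice (log2FC 0.71 ± 0.13, adjusted *P* = 0.0043, edgeR) and was at 0.39 ± 0.13 in aged mice. Pds5b, a cohesin regulator, fell at both ages (−0.46 ± 0.09 and −0.38 ± 0.09). Dnmt3a, a DNA methyltransferase, was at −0.20 ± 0.07 and −0.23 ± 0.07 and passed the adjusted threshold in aged mice. Of 22 intracellular partners and signaling genes, 4 passed higher and 7 lower in young mice and 1 higher and 5 lower in aged mice. Prkca, a protein kinase C gene, fell by 0.54 ± 0.10 and 0.47 ± 0.10 on the log2 scale, and Nckap1, a subunit of the WAVE complex that cytoplasmic protocadherin tails can engage, by 0.52 ± 0.07 and 0.41 ± 0.07. Of 11 genes for cleavage and trafficking, 10 were tested and 1, Vps35 of the retromer, passed at each age, with a lower level (−0.27 ± 0.05 and −0.26 ± 0.05).

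Of 17 other genes at or beside the clusters, 16 were tested, and 0 passed lower by the DEG criterion (3.49% and 2.82% of all genes) or the adjusted threshold at either age, a count near the background. Pcdh1, a non-clustered protocadherin nearby, was lower in young mice at an unadjusted *P* under 0.05 (−0.28 ± 0.10), and it passed the adjusted threshold with both ages averaged (−0.24 ± 0.07, adjusted *P* = 0.0190, edgeR). The median log2FC of the list was 0.09 in young and 0.10 in aged mice. In young mice 2 passed the adjusted threshold with higher levels, Arap3 (0.52 ± 0.11) and Diaph1 (0.24 ± 0.07), and in aged mice 1, Dnd1, was a DEG with a higher level (0.63 ± 0.25).

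The interaction, taken as the log2FC after ICH at 20 to 22 months less that at 8 to 10 weeks, showed no member past a threshold. By edgeR 0 of 54 members were DEGs for the interaction (0.484% of all genes higher and 1.08% lower). The adjusted threshold was passed by 0 members and by 0 of all 21495 genes, so nothing is read from that count. At an unadjusted *P* under 0.05 there were 2 members, both lower (1.91% of all genes). DESeq2 also gave 0 with adjustment and 2 without. The 2 members in edgeR were Pcdhgc3 (−0.39 ± 0.16) and Pcdhb8 (−0.48 ± 0.21). Pcdhb8 was picked out for high aged values, and the sham samples behind that choice also enter its interaction, so that its value is a description. The next were Pcdha9 (0.51 ± 0.28), Pcdhac2 (0.27 ± 0.18) and Pcdha2 (0.42 ± 0.28). The median SE of these values was 0.22 over the members, so that differences between the ages of this size were not detectable.

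The age differences are described next, without a test. In aged sham vs. young sham the log2FC was above 0 in 36 of 54 members (51.7% of all genes) and in aged ICH vs. young ICH likewise in 36 (49.0% of all genes). The median was 0.15 after sham surgery and 0.17 after ICH, compared with 0.0089 and −0.0046 over all genes. Every aged sham sample lay above every young sham sample in 23 members (9.81% of all genes) and below in 9 (11.2%). These age comparisons contributed to the choice of the genes, and nothing is read from these shares.

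All 11 tested gamma A genes and all 7 gamma B genes had higher levels in aged mice after both surgeries, with medians of 0.35 and 0.39 after sham surgery and 0.39 and 0.20 after ICH. Of the 5 C-type genes, 4 were lower in aged sham and 5 in aged ICH. Pcdhgc5 fell from 114 ± 5.42 CPM in young sham to 81.6 ± 8.30 CPM in aged sham (log2FC −0.49 ± 0.12), and its values in ICH tissue were 75.3 ± 12.2 CPM in young and 63.1 ± 6.86 CPM in aged mice (−0.25 ± 0.12). The C-type genes made up 33.7% ± 0.211 of the summed level in young sham and 24.8% ± 0.536 in aged sham. The gamma A genes made up 21.5% ± 0.968 and 27.0% ± 0.725. Alpha genes were divided, with 3 of 10 higher and 7 lower after sham surgery and 5 each way after ICH.

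The beta cluster was divided by position, a split that was made after the values were seen. All 13 genes from Pcdhb2 to Pcdhb14 were higher in aged mice after both surgeries (medians 0.53 and 0.50). From Pcdhb15 to Pcdhb22, 7 of 8 were lower in aged sham and 8 of 8 in aged ICH (medians −0.22 and −0.17). Within the first stretch the values ranged from 0.13 to 1.51 after sham surgery, and Pcdhb8, Pcdhb6 and Pcdhb9 were highest.

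Pcdhb8 (37355121 to 37358604, a single exon of 3484 bases shared with no other gene) had the largest age difference of the members. It was at 2.87, 3.20 and 3.93 CPM in young sham and at 10.3, 9.34 and 8.77 CPM in aged sham. After ICH it was at 3.16, 2.50 and 2.74 CPM in young and at 5.83, 6.09 and 5.25 CPM in aged mice. The aged samples lay above the young samples after both surgeries (log2FC 1.51 ± 0.15 and 1.03 ± 0.15), and the aged ICH samples stood between those of young and aged sham. The log2FC of ICH vs. sham was −0.73 ± 0.14 in aged mice and −0.25 ± 0.15 in young mice. The aged value met the DEG criterion and the adjusted threshold and is in the aged counts above. It is read as a description only, because the aged sham samples for which Pcdhb8 was picked out are its controls.

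Pcdhb9 (37400855 to 37403909, a single exon of 3055 bases of its own) was at 12.2, 12.6 and 11.8 CPM in young sham and at 20.9, 25.5 and 20.3 CPM in aged sham. After ICH it was at 12.2, 10.7 and 10.6 CPM in young and at 20.4, 20.0 and 21.1 CPM in aged mice. The age difference was of the same size after both surgeries (0.86 ± 0.10 and 0.87 ± 0.10), with no overlap of the samples. Pcdhb6 (1.01 ± 0.16 and 0.80 ± 0.17), Pcdhga8 (0.96 ± 0.15 and 0.76 ± 0.15), Pcdhb2 (0.82 ± 0.29 and 0.96 ± 0.31) and Pcdhb3 (0.79 ± 0.16 and 0.78 ± 0.16) were of about this size as well. On the other side, Pcdha6 (−0.74 ± 0.21 and −0.55 ± 0.23) and Pcdha7 (−0.52 ± 0.25 and −0.68 ± 0.25) were lower in aged mice.

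**Figure D5:**
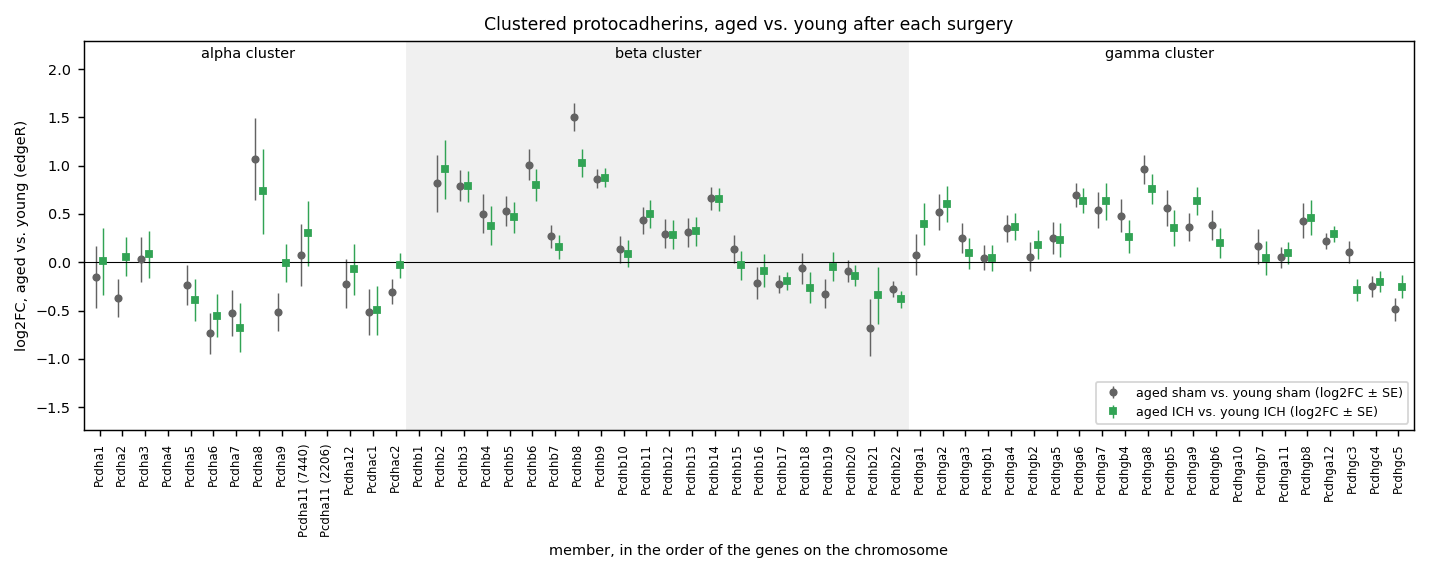
log2FC of aged vs. young for each tested member after sham surgery and after ICH (lines are SEs of the edgeR fit; vertical axis in log2 units). The beta genes up to Pcdhb14 and the gamma A and gamma B genes lie above 0, and the later beta genes mostly below. Pcdhb8 is highest, at 1.51 after sham surgery and 1.03 after ICH.

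The age differences after the 2 surgeries, measured in separate samples, are set side by side as a description. These age comparisons contributed to the choice of the genes, so nothing is read from how alike they were. Over 54 members, log2FC in sham and in ICH tissue had the same sign in 50, with Pearson's r of 0.91 and Spearman's rho of 0.92 (0.90 and 0.91 over 52 members without Pcdhb8 and Pcdhb9). Over all 21495 genes r was 0.42, and the sign was the same in 14262. The responses to ICH in young and in aged mice had the same sign in 52 of 54 members and in 16851 of all 21495 genes. Pearson's r was 0.73 for the members and 0.73 for all genes. These correlations are across genes of 1 locus that share exons and libraries, and genes are not independent replicates.

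Genes whose copy number or sequence is known to vary among C57BL/6 colonies were examined beside the age differences, since the labels give no substrain. Ide, Btaf1 and Fgfbp3, neighbours on another chromosome that lie in a segment known to be duplicated in some colonies, had higher mean levels in aged mice after both surgeries. Ide was at 55.4, 54.8 and 57.5 CPM in young sham and at 115, 82.6 and 110 CPM in aged sham (log2FC 0.87 ± 0.11), and at 52.1, 57.3 and 59.1 CPM in young ICH and 80.3, 87.9 and 89.6 CPM in aged ICH (0.61 ± 0.11). Fgfbp3 had 0.73 ± 0.14 and 0.46 ± 0.14, and Btaf1 0.43 ± 0.12 and 0.48 ± 0.12. In Ide, Btaf1, Fgfbp3, Wdfy1 and Nnt, as in Pcdhb8 and Pcdhb9, every aged sample lay above the young samples of the same surgery. Of all genes, 9.81% did so after sham surgery, and 1484 of 21495 did so after ICH. Of the 9 genes of this list, 8 were tested, and their log2FC was above 0 in 6 after sham surgery and in 7 after ICH. The others were Nnt (0.77 ± 0.36 and 1.16 ± 0.35), Wdfy1 (0.19 ± 0.07 and 0.46 ± 0.07), Crb1 (0.16 ± 0.36 and 0.18 ± 0.38), Cyfip2 (−0.14 ± 0.12 and −0.02 ± 0.12) and Nlrp12 (−0.19 ± 0.71 and 0.16 ± 0.53), and Entpd4 had too few reads. Levels of Nnt were low in every group (0.26 to 0.98 CPM over all samples), as were those of Nlrp12 (0 to 0.44 CPM), so their log2FC rest on few reads. Stock and age cannot be told apart in these samples, and the part of the stock in the protocadherin values was not tested.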

How the data were processed

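Per the labels and the study's methods, the authors aligned paired reads to GRCm38.p6 (HISAT2), assigned them to genes (featureCounts, Subread) and deposited raw counts and FPKM (fragments scaled to exon length and mapped fragments) for 54833 genes in 12 samples. The strand setting and the treatment of reads with several alignments are not given in the sources used here. The labels number the samples within a group, and 0 columns were left unassigned. The deposited counts were analysed with edgeR 4.0.16 (limma 3.58.1, R 4.3.3) in one fit of 4 groups over all 12 samples, with TMM normalization and filterByExpr (minimum count 10), which left 21495 genes, and with the quasi-likelihood test and Benjamini-Hochberg adjustment over these. SE was taken as |log2FC| over the root of F. The scripts were tested on simulated data. The deposited FPKM served for exon lengths, for ranking levels and as an alternative scale. Nothing in the labels ties a sample to single animals, and *P* values measure the spread between pools.

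Members named with all their samples were Pcdhb8, Pcdhb9, the C-type genes, the 3 members of highest mean FPKM in each cluster, and the 5 members with the smallest *P* in each ICH comparison, their average and the interaction. Of the listed genes, up to 4 with the smallest *P* could be named. Dnd1, Pcdhgb1, the whole list of genes that vary among colonies, the values under the age comparisons beyond this rule and the split of the beta cluster were chosen after values were seen. The members, the 22 gene lists and the tests were chosen with earlier results of these data known. Alternatives were median-of-ratios size factors, no filter, only the groups compared, DESeq2 1.42.0, the adjusted threshold, the replicate number as a block, leaving out each sample, and other scales of the sums. Sequences of the members were not analysed here.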

Additional observations from a re-analysis of the deposited data

How the results depend on the processing

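Among the named members, the log2FC of ICH vs. sham at one age changed direction in 1 case, Pcdhgc3 in aged mice without aged sham replicate 2. DESeq2 called 18 members in young and 12 in aged mice, median-of-ratios size factors 18 and 12, no filter 17 and 12, and only the groups compared 16 and 11. Leaving out 1 sample gave 11 to 20 members in young mice (11 without young sham replicate 2), 8 to 13 in aged mice, 12 to 17 for the average and 0 to 1 for the interaction, where Pcdha9 (0.64 without young sham replicate 1), Pcdhb8 (−0.61 without young sham replicate 3) or Pcdha2 (0.62 without young ICH replicate 1) met the DEG criterion. The adjusted threshold without a fold limit raised the average from 15 to 34 members. Members past the adjusted threshold numbered 5 to 18 in young mice, 3 to 13 in aged mice and 27 to 32 for the average with 1 sample left out, 6 in young mice with only the groups compared, and 20 in aged mice with DESeq2. Members higher in aged mice numbered 31 to 37 after sham surgery and 34 to 37 after ICH. The beta sum changed by −11.2% in young mice as summed FPKM. Values near 0 changed sign with 1 sample left out, namely Pcdhgc3 in aged mice (−0.093 to 0.00050) and, for the interaction, Pcdhgc4 (−0.054 to 0.14), Pcdhb9 (−0.052 to 0.12) and Pcdhac1 (−0.18 to 0.25). Pcdhac2 left the DEG criterion for the average in 3 of 12 cases. The causes were not tested. Samples with the same replicate number did not deviate together (18 correlations from −0.45 to 0.23, 5 of them over 0.1), so the numbers were not taken as a pairing. With the replicate number as a block, 17, 10, 16 and 0 members were DEGs in young mice, in aged mice, for the average and for the interaction, and 4 of the 18 correlations were highest for a sample's own number. For the interaction and the average, the groups compared are all samples, so that alternative gave no other value. Members with few reads or few unshared exon bases could not be tested at this depth.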
